A study of Mus musculus with 2 samples.

Results

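Bcl11b and Gata3 are transcription factor genes of the T lineage, and each is known for control from enhancers that lie far downstream of the gene. CTCF-bound regions around them were taken from 1 ChIP-seq library of CD4+CD8+ (double-positive) thymocytes. A region counted as a member if its midpoint lay in 1 of 2 stretches of mm9, chr12:108200000-109400000 for Bcl11b or chr2:9200000-9950000 for Gata3. These stretches held 45 and 15 regions, together 60 of the 51660 regions listed on the autosomes and the X. The cells came from C57BL/6 mice aged 4 to 8 weeks that were Rag1 -/- and carried a rearranged T cell receptor beta transgene, so they had no Rag1 recombinase to assemble their own receptor genes. The antibody was a Millipore anti-CTCF, used on chromatin fixed in 1% formaldehyde for 10 minutes. An input library of the same genotype, strain, age range and tissue is listed in the labels and was not analysed here. With 1 library there was no replicate and no second condition, so no test was run and every comparison is between parts of 1 genome-wide list. Cell type markers could not be looked at in a list of positions.

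CTCF is a zinc-finger protein that stops cohesin as it moves along chromatin. Loops form between sites where it does so, and such loops can bring a distant enhancer near a promoter or keep it away. Bcl11b encodes a zinc-finger repressor that is switched on as early thymocytes commit to the T lineage and stays on in double-positive cells. Its far enhancer also gives rise to a non-coding RNA, ThymoD, whose transcription is known to matter for contact with the gene. Gata3 encodes a zinc-finger activator needed at several steps of T cell development, and a T cell enhancer, Tce1, is known downstream of it. Neither enhancer was placed on these coordinates, since no mm9 annotation was used here. RefSeq's GRCm38 tables have both genes on the minus strand of the chromosomes named above, so downstream means lower coordinates, and the rule has the gene at the high end of each stretch.

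In the GRCm38 gene order, 5 genes separate Bcl11b (gene ID 58208) from its next protein-coding neighbour at lower coordinates, Gm52008. They are 3 long non-coding RNAs and 2 pseudogenes. On the other side the next coding gene is Setd3, a histidine methyltransferase of actin. Gata3 (gene ID 14462) has 11 genes between it and Celf2, an RNA-binding protein gene, of which 6 are long non-coding RNAs and 5 are pseudogenes. Its coding neighbour at higher coordinates is Taf3, a subunit of the general transcription factor TFIID. Which of these genes lie inside the mm9 bounds was not determined.

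The file gives positions only. It has no height, count or score, so the depth is unknown and the width of a region, in steps of 25 bp, is the only value each member has. The stretch around Bcl11b was no desert of CTCF binding. Its 45 regions made 37.5 per Mb (exact 95% Poisson interval 27.4 to 50.2, counting error only), against 19.6 per Mb in the whole library. Of the 45, 31.1% were at least 525 bp wide, the median width of the library, against 51.8% of all regions. The excess was thus smaller among wide regions. The Gata3 stretch, with 20 regions per Mb (11.2 to 32.99), lay at the level of the library by count. Of its 15 regions 33.3% were at least 525 bp wide, so among wide regions it lay below the library. The intervals of the 2 stretches overlapped. Here and below, an interval treats regions as independent and holds no spread between mice. Overlap of intervals does not show that the counts are alike, and no difference between counts was tested.

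**Figure D1:**
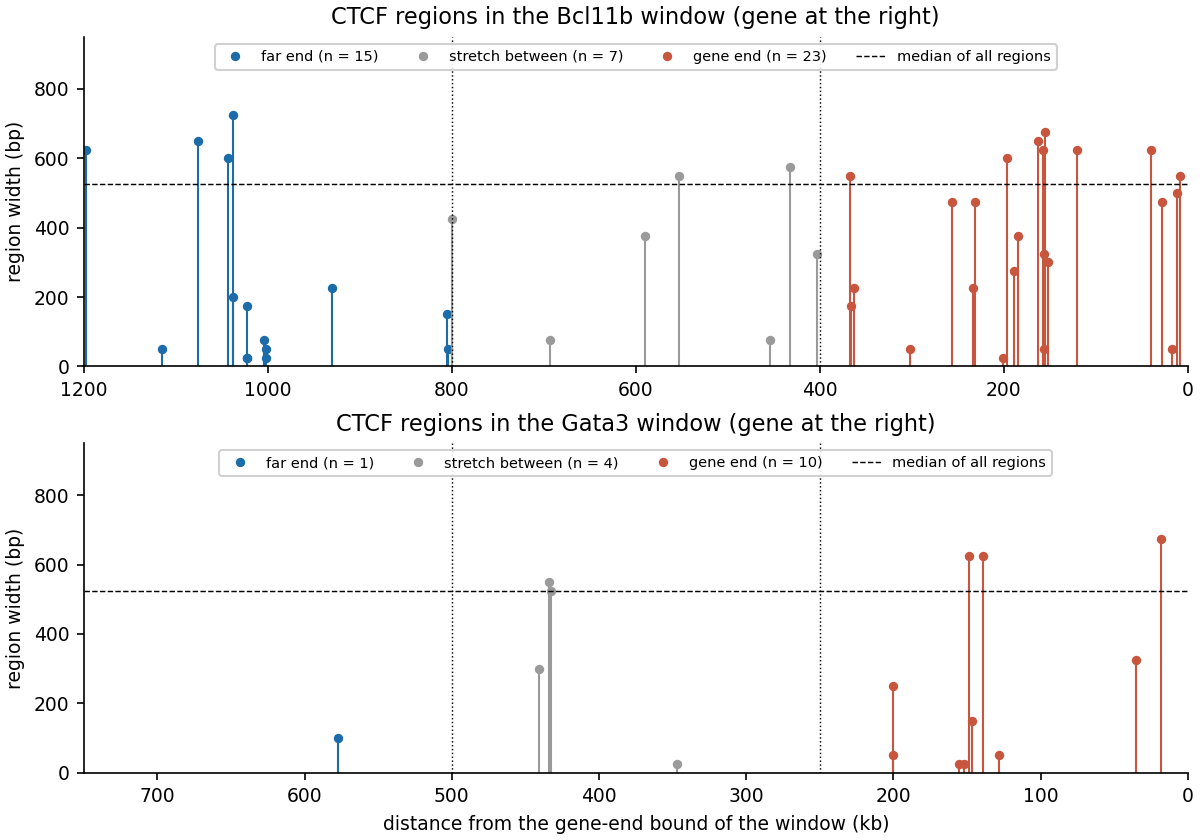
Each stick is a CTCF region, placed by its distance in kb from the high-coordinate bound of its stretch (x axis) and as tall as its width in bp (y axis). Dotted lines part the 3 zones, and the dashed line is the median width of all regions, 525 bp. Sticks that reach the dashed line number 4, 2 and 8 from far end to gene end in the Bcl11b stretch, and 0, 2 and 3 in the Gata3 stretch, where those of the middle zone are a pair 434 and 433 kb from the bound.

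Each stretch was cut into 3 zones of equal length, called the far end, the stretch between and the gene end from low to high coordinates. For Bcl11b each zone was 400 kb long. The far end held 15 regions, 37.5 per Mb (20.99 to 61.9). The stretch between held 7, or 17.5 per Mb (7.04 to 36.1). The gene end held 23, or 57.5 per Mb (36.5 to 86.3). The sites were thus most frequent around the gene, next most frequent at the far end and fewest between. The intervals of the gene end and the stretch between were barely apart, and that of the far end overlapped both. With regions at most 100 bp apart joined, the gene end held 22 (34.5 to 83.3 per Mb) and the stretch between 7 (7.04 to 36.1). With regions of at most 75 bp left out they held 19 (28.6 to 74.2) and 5 (4.06 to 29.2). In both settings the intervals of these zones overlapped, so their separation depends on such choices. The difference between the zones was not tested. Covered bases followed the order of gene end, far end and stretch between as well, at 8900, 3650 and 2400 bp. Short regions made up much of the far end: without those of at most 75 bp the zones held 8, 5 and 19 regions from far end to gene end, and among regions of at least 525 bp, the median width of the library, 4, 2 and 8.

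How far a middle zone with the fewest regions belongs to Bcl11b can be read from the rest of the genome. This pattern was taken from the counts above, and the order of the outer zones was not part of it. Tiles of the same length were laid end to end over the autosomes and the X, and in 18.1% of 2190 tiles the middle zone held fewer regions than either outer zone. Among the 560 tiles with a number of regions within 1.5 times that of Bcl11b, 26.1% did. In 7.14% of those 560 tiles the middle zone had a share of regions as low as the 15.6% found here, and the median share was 33.3%. A dip in the middle was therefore common, and one as deep was less so.

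For Gata3 each zone was 250 kb long. The far end held 1 region, 4 per Mb (0.101 to 22.3). The stretch between held 4, or 16 per Mb (4.36 to 40.97), and the gene end held 10, or 40 per Mb (19.2 to 73.6). The count was thus higher the nearer the zone was to the gene, with no second gathering at the far end. All 3 intervals overlapped, by little for the far end and the gene end. Without regions of at most 75 bp the gene end held 6, and with a far end of 400 kb and a gene end of 200 kb the far end held 4. Counts that rise or fall steadily over the zones were found in 23.7% of 3506 tiles of this length, and in 37.0% of the 859 tiles with a like number of regions, so the order itself is ordinary.

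**Figure D2:**
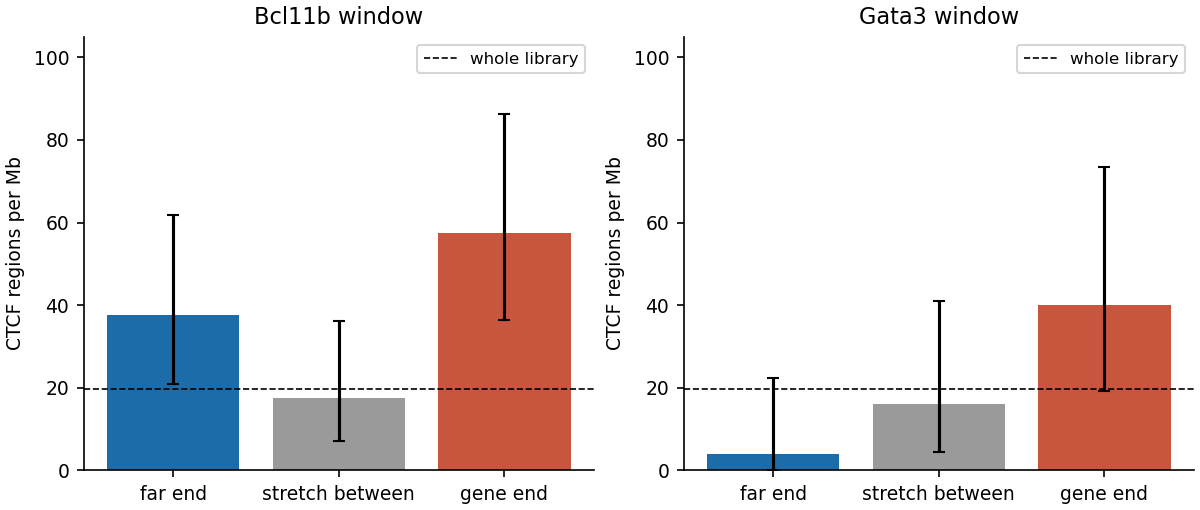
Bars give CTCF regions per Mb (y axis) in the 3 zones of each stretch, with exact 95% Poisson intervals as error bars, and the dashed line is the whole library at 19.6 per Mb. Bcl11b has its lowest bar in the middle (17.5 per Mb), and Gata3 has its lowest at the far end (4 per Mb).

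At the gene end of Bcl11b, the densest spot was a group of 4 regions within 2.825 kb (109242061 to 109244885). It was made of regions of 625, 325, 50 and 675 bp, and the last, from 109244211, was the widest of the zone. A region of 650 bp (109236836 to 109237485) lay 4.575 kb below the group, and one of 300 bp (from 109247411) lay 2.525 kb above it. From 109143486 to 109247710 there were 13 regions, with gaps of 0.025 to 29.55 kb between neighbours. Toward Setd3 came single regions of 625 bp from 109279636 and from 109359386, parted by 79.125 kb, and then a run up to the last member, 550 bp wide (109390836 to 109391385). The zone began with regions of 550, 175 and 225 bp from 109032761, 109033911 and 109036936. In all, 8 of the 23 regions were at least 525 bp wide. Whether a region covers the Bcl11b start site was not determined.

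The far end of Bcl11b began with a row of wide regions. The first was 625 bp wide and lay at 108201811 to 108202435. It was followed by 1 of 650 bp at 108324286 to 108324935 and 1 of 600 bp at 108356411 to 108357010. The row ended with a region of 725 bp, at 108362186 to 108362910, the widest of all 60 members. A region of 50 bp from 108285461 lay among them. The 4 wide ones lay within 161.1 kb and were the only ones of the zone to reach 525 bp. The region of 725 bp started 879.875 kb below the group of 4 at the gene end. It had a companion of 200 bp from 108361961 at a gap of 25 bp, and the 600 bp region lay 4.95 kb below that companion. These 4 were 600 to 725 bp wide, and the 8 regions of the gene end that reached 525 bp were 550 to 675 bp wide. Both sets were picked by width, so their likeness says nothing of the zones as a whole. Over all regions, with split pieces counted singly, the median width was 150 bp at the far end and 475 bp at the gene end.

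Above this row the far end held short regions only. A group of 3 (108377211 to 108377485) was made of pieces of 175, 25 and 25 bp parted by 25 bp. A region of 75 bp from 108395511 and a pair of 50 and 25 bp (108398436 to 108398535) followed within 2.85 kb of each other. Then came a region of 225 bp (108469911 to 108470135), and a pair of 150 and 50 bp (108595211 to 108595510) closed the zone. Of the 15 regions of the far end, 7 were at most 75 bp wide, and the median was 150 bp, compared with 475 bp at the gene end. Split pieces count singly here. Joining regions at most 100 bp apart left 10 at the far end and 22 at the gene end. Widths by zone under that joining are not given.

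In the stretch between, the 7 regions of the Bcl11b locus stood far from each other. They were 425 bp (from 108600311), 75 bp (108706186), 375 bp (108810286), 550 bp (108847061), 75 bp (108945661), 575 bp (108967386) and 325 bp (108996736). Their median distance was 67.2 kb, against 9.625 kb in the far end, 4.975 kb at the gene end and 13.1 kb in the whole library. Gaps across zone bounds are left out of the medians by zone. No member of this zone had a neighbour under 2 kb away, but its first region lay 4.8 kb above the pair that closed the far end. The longest gap of the locus, 125.1 kb (108470136 to 108595210), lay below it in the far end, and the next in length, 105.5 kb (108600736 to 108706185), lay inside it. Gaps as long as these were 6.74% and 8.21% of all 51640 gaps, so they were long but not rare.

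Between the wide regions the distance was larger. From the 725 bp region at the far end no region of 525 bp or more was listed for 484.15 kb (108362911 to 108847060). Of the 26745 gaps between neighbouring regions of at least that width, 3.05% were as long. Inside it lay 12 regions of 25 to 425 bp, of which 7 were at most 75 bp wide.

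**Figure D3:**
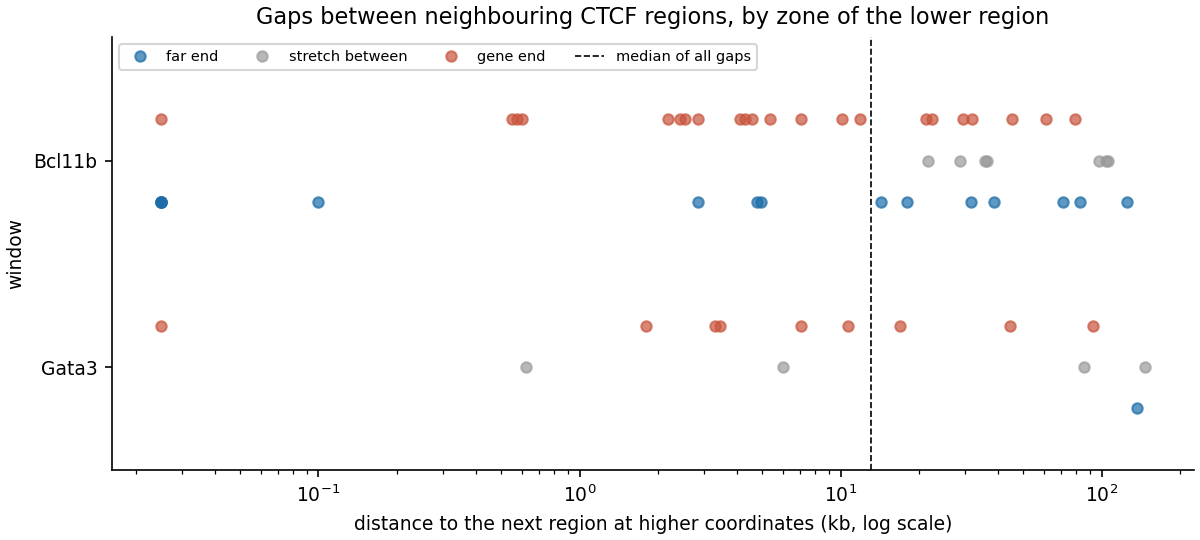
Each point is the distance in kb from 1 member to the next at higher coordinates (x axis, log scale), in rows by locus and zone of the lower member, and the dashed line is the median of all gaps, 13.1 kb. The points of the Bcl11b stretch between lie above 20 kb, while both outer zones hold gaps down to 0.025 kb.

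At the gene end of Gata3, regions gathered in a run from 9794274 to 9822048. It held pieces of 25 bp from 9794274 and 9797749, a pair of 625 and 150 bp (9801074 to 9803648, 1.8 kb apart), a region of 625 bp (9810699 to 9811323) and 1 of 50 bp (from 9821999). Below the run stood a pair of 250 and 50 bp (9749474 to 9749798). Above it, after 92.5 kb without a region, came 325 bp (from 9914574) and 675 bp (9931749 to 9932423), the latter the widest member of the locus. With these, 3 of the 10 regions of this end reached 525 bp.

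The stretch between held the only wide regions of Gata3 away from the gene. They were a pair of 550 bp (9515624 to 9516173) and 525 bp (9516799 to 9517323) with 625 bp between them, and a region of 300 bp (from 9509299) lay 6.025 kb below. The pair began 285.45 kb below the 625 bp region at 9801074. Whether the pair falls on Tce1 was not determined. Between the pair and the gene-end run, 283.75 kb (9517324 to 9801073) held no region of 525 bp or more, a length reached by 5.44% of the gaps between such regions. A single piece of 25 bp (from 9603299) was the last member of this zone.

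The far end of Gata3 was nearly empty. Its 1 region was 100 bp wide (9372474 to 9372573), and 136.7 kb followed without a region. The longest gap of the locus came after the piece at 9603299 and measured 146.15 kb (9603324 to 9749473), as long as 5.61% of all gaps. Below the single far region, 480.175 kb had no listed region. That gap crosses the low bound of the stretch and ends at a region of 425 bp from 8891874. Gaps of that length made up 1.45% of all gaps, 751 in number.

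Members of both loci were narrower than regions at large. The median width was 325 bp for Bcl11b (range 25 to 725 bp) and 250 bp for Gata3 (25 to 675 bp), beside 525 bp in the library. At Bcl11b 14 of 45 members reached 525 bp, 31.1% (exact 95% binomial interval 18.2 to 46.6%, counting error only), and at Gata3 5 of 15, 33.3% (11.8 to 61.6%), where 51.8% of all regions did. Members of at most 75 bp were 13 at Bcl11b, 28.9% (16.4 to 44.3%), and 5 at Gata3, 33.3% (11.8 to 61.6%), where 14.1% of all regions were so short. For Bcl11b both intervals leave out the share of the library, and for Gata3 with its few members both intervals hold it. The intervals treat members as independent, but 6 of the 13 short ones at Bcl11b had a neighbour under 2 kb away. Joining regions at most 100 bp apart took the median width of Bcl11b to 400 bp. Shares under that joining are not given here, for the loci or the library. Since the threshold of the peak list is not known, a short region cannot be told apart from a wide one of which only a part was listed.

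Close neighbours were about as frequent as elsewhere. A neighbour under 2 kb away was found for 15 members of Bcl11b (33.3%, in 6 groups) and 6 of Gata3 (40%, in 3 groups), near the 34.4% of all regions. Among members of at most 75 bp it was found for 6 of 13 at Bcl11b (46.2%, 19.2 to 74.9%) and 1 of 5 at Gata3 (20%, 0.505 to 71.6%), beside 68.6% of such regions in the library. The interval at Bcl11b holds the share of the library and that at Gata3 does too, so these counts do not set the loci apart.

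**Figure D4:**
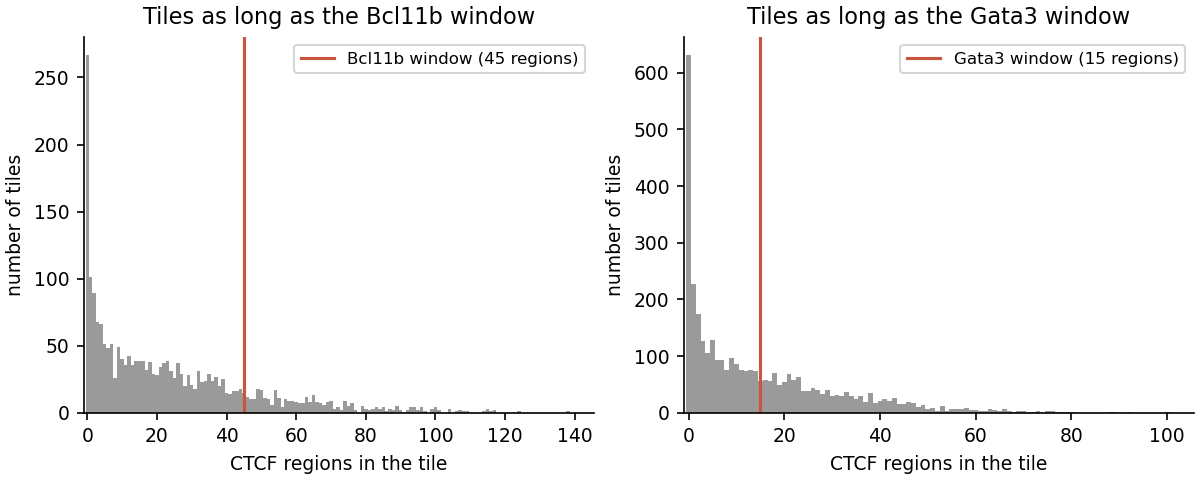
Grey bars count tiles (y axis) by the number of CTCF regions they hold (x axis), for tiles of 1.2 Mb on the left and 0.75 Mb on the right, and red lines mark the Bcl11b stretch with 45 regions and the Gata3 stretch with 15. Both lines stand inside the bulk of the tiles, to the right of the tile medians of 17 and 9.

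Set beside tiles of their own length, both loci were inside the range of the genome. For Bcl11b, 83.6% of tiles held at most as many regions and 73.3% covered at most as many bases. The tile median was 17 regions, and the 5th to 95th percentile ran from 0 to 71. For Gata3, 62.6% of tiles held at most as many and 50.9% covered at most as many bases, with a tile median of 9 (0 to 46). Tiles without any region were counted in, 267 of 2190 at the Bcl11b length and 632 of 3506 at the Gata3 length. They raise the shares of tiles at or below each locus, and they cannot show any order of zones. Of tiles with at least 2 regions, 77.2% had a longest gap of at least the 125.1 kb of Bcl11b and 48.1% of at least the 146.15 kb of Gata3. The tile medians were 198.9 and 142.4 kb. Among tiles with a like number of regions the shares were 72.3% and 61.6%. Without regions of at most 75 bp the longest gaps were 209.55 and 232.15 kb, which 48.97% and 22.6% of tiles treated the same way reached. Among such tiles with a like number of regions, 38.5% and 32.5% did. The place of either gap among tiles thus rests on the short regions.

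The bounds of the stretches cut the list at places with and without regions. At the low bound of Bcl11b the first member lay 2.12 kb inside and the nearest region outside, of 600 bp, lay 109.9 kb away. At its high bound the last member lay 8.89 kb inside and a region of 575 bp (109400161 to 109400735) lay 0.448 kb outside. For Gata3 the first member lay 172.5 kb inside and the region before it 307.9 kb outside. At its high bound the last member lay 17.9 kb inside, and a region of 500 bp lay 5.498 kb outside.

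Myc, a growth-promoting transcription factor gene that also has far downstream enhancers, was described the same way between 61 and 64 Mb of chromosome 15. It held 45 regions, 15 per Mb (10.9 to 20.1), an interval below that of Bcl11b. Its 3 zones of 1 Mb held 10 regions at the gene end (4.80 to 18.4 per Mb), 5 between (1.62 to 11.7) and 30 at the far end (20.2 to 42.8). Its fewest regions thus also lay in the middle, but its far end exceeded its gene end. The intervals of its gene end and its middle zone overlapped. The longest gap was 426.4 kb. Around 10 other transcription factor genes of thymocytes (Runx1, Myb, Ets1, Tcf7, Notch1, Satb1, Ikzf1, Lef1, Tox and Bach2), the 1-Mb bin thought to hold the gene had 13 to 65 regions with a median of 38.5. Of these bins 5 were above the 37.5 per Mb of Bcl11b and 8 above the 20 per Mb of Gata3. Bcl11b was near the middle of this set and Gata3 near its low end. The windows are unlike, since the stretches are 1.2 and 0.75 Mb long and reach far from the gene. The gene-end zones alone had 57.5 per Mb at Bcl11b and 40 at Gata3, both above the median of the bins. The place in this set thus depends on the part counted. Median widths of the bins ran from 350 bp (Satb1) to 587.5 bp (Tox), all above the 325 and 250 bp of Bcl11b and Gata3. Regions of at least 525 bp made up 23.1% (Satb1) to 58.3% (Ikzf1) of a bin. Only Satb1 was below the 31.1% and 33.3% of Bcl11b and Gata3. For Myc these values were 450 bp and 42.2%, and in its middle zone of 5 regions 250 bp and 20%. The bounds of Myc and of the bins are whole Mb from general knowledge and were not checked against an mm9 annotation.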

How the data were processed

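Per the submitters' processing notes, Bowtie was the aligner and mm9 the genome build. Not given in the sources used here are its version, which program called peaks at what threshold, and whether input reads were subtracted. The deposited list holds positions only, 912174 windows of 25 bp each, which the authors had assigned to peaks. Starts were read as counted from 0 and are printed counted from 1. Adjoining windows (gap 0 bp) were joined into 51661 regions, and 1 on the mitochondrial genome was left out.

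The design kept to description, since 1 library allows no test. The members, zones, tiles and comparison loci were chosen with earlier results of these data known. Tiles ran from the first base of each of 20 chromosomes, and the partial last tile was left out, as were gaps across tile bounds. Regions printed are all those of zones with at most 6, and otherwise the first, the last, the 3 widest, those that bound the 2 longest gaps and groups with under 2 kb between neighbours. Further regions, among them all of at least 525 bp, were named after their values were seen, and so were the background of tiles with a like number of regions and the tile comparison of gaps without short regions. RefSeq's GRCm38 tables gave gene names, order and strand only, and no coordinate of theirs was used. Joining, zoning, gaps and tiles were tested on simulated data. Computations ran in Python 3.11.15 with SciPy 1.17.1, pandas 2.3.3 and NumPy 2.4.6, and plots in matplotlib 3.10.9.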

Additional observations from a re-analysis of the deposited data

How the results depend on the processing

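Joining regions at most 100, 500 or 1000 bp apart, or counting any overlap with a stretch, changed no count, gap or median width by more than 1.5 times, and laying tiles from another start or on the same chromosome changed no share of tiles by as much. Joining at 100 bp took the far end of Bcl11b from 15 to 10 regions. Without regions of at most 75 bp, the far end of Bcl11b held 8 regions and the gene end of Gata3 6, the longest gaps were 209.55 and 232.15 kb, and the median width of Gata3 was 425 bp. With only regions of at least 525 bp, Bcl11b held 14 regions (4, 2 and 8 from far end to gene end) and Gata3 5 (0, 2 and 3), with longest gaps of 484.15 and 283.75 kb and median widths of 625 bp in both. The middle of Bcl11b had the fewest regions in these settings too. Outer zones of 300 kb, which 4 equal parts also give, left 13 regions between in Bcl11b, beside 13 at the far end and 19 at the gene end, or 21.7, 43.3 and 63.3 per Mb. For Gata3, a far end of 400 kb and a gene end of 200 kb held 4 and 8 regions, or 10 and 40 per Mb, with 20 per Mb between. Without heights or depth, binding at a place that is not listed cannot be judged.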

Other observations

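At both loci the flank on the side of the gene held more regions than the flank on the far side, as counted over the length of the stretch itself. The 1.2 Mb above the Bcl11b stretch held 54 regions, 45 per Mb (exact 95% Poisson interval 33.8 to 58.7), with a median width of 575 bp, and the 1.2 Mb below held 33, 27.5 per Mb (18.9 to 38.6), with a median of 350 bp. The 0.75 Mb above the Gata3 stretch held 21 regions, 28 per Mb (17.3 to 42.8), with a median width of 475 bp, and the 0.75 Mb below held 8, 10.7 per Mb (4.61 to 21.02), with a median of 512.5 bp. At each locus the intervals of both flanks overlapped, and the difference between the flanks was not tested.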
